A study of Mus musculus with 39 samples.

Results

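The complement genes described here are 9 loci measured in sorted embryonic mouse brain macrophages: C1qa, C1qb and C1qc, the chains of C1q, C2, C3, C4b, the properdin gene Cfp, and the anaphylatoxin receptor genes C3ar1 and C5ar1. They were taken by symbol from a table of counts for 53379 genes. Each symbol matched 1 row, and all 9 were among the 22061 genes that passed the filter on low counts and were tested. The embryos were C57Bl/6 with no treatment or allele named, from timed matings with the plug day called E0.5. Flow cytometry sorted microglia, the macrophages of the brain parenchyma, and border-associated macrophages (BAM), those of the meninges, choroid plexus and vessel surroundings. The microglia groups held 4, 3, 3, 2, 3 and 4 libraries at E10.5, E11.5, E12.5, E14.5, E16.5 and E18.5 (n = 19), and the BAM groups 4, 3, 3, 3, 3 and 4 (n = 20). The labels used here name neither the surface markers of the gates nor the litters, so p-values measure the spread between these libraries, which may be technical.

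Complement is a cascade of plasma and tissue proteins that tags particles for uptake. C1q recognises its targets and, with its proteases, cleaves C4 and C2, whose fragments form the convertase that cuts C3. Factor B and properdin build and stabilise the alternative convertase. The released C3a and C5a fragments are sensed by the receptors C3ar1 and C5ar1, and fragments of the C3b coat are read by integrin receptors such as CR3. In brain, C1q and C3 are best known for marking synapses that microglia remove, and macrophages are a main local source of C1q.

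Library totals ran from 10.7 to 47.2 M counts (M, mega), with a median of 22.4 M. The library names fell into 2 numbered series: the 23 libraries named R8 (10.7 to 24.3 M) and the 16 named R10 (20.6 to 47.2 M). The R10 libraries were those of both early stages, E10.5 and E11.5, and 1 per population at E18.5; the others were R8. The sort labels were checked against markers. All 8 microglia markers (among them P2ry12, Tmem119 and Sall1) were lower in BAM and all 8 BAM markers (among them Mrc1, Lyve1 and Cd163) were higher, as the mean over stages. Summed over their 8 genes, the BAM markers took 8261 to 34369 CPM (counts per M counts of the library) in BAM and 1832 to 7451 in microglia. The microglia markers took 2836 to 20308 CPM in microglia and 1633 to 3296 CPM in BAM. Their medians at E10.5 were 3093 and 1908 CPM. Of the lists for other cell types, neural markers reached 919 CPM in microglia and 764 CPM in BAM, erythroid markers 597 and 281 CPM, endothelial markers 185 and 307 CPM, and lymphoid markers 1.11 and 2.77 CPM. At E10.5 granulocyte markers took 34.9 to 89.4 CPM in microglia and 1.92 to 5.39 CPM in BAM, and monocyte markers 47.9 to 74.2 and 8.59 to 15.1 CPM. After E10.5 monocyte markers reached 124 CPM in microglia at E14.5 and 57.0 CPM in BAM at E12.5. Granulocyte markers then reached 57.4 CPM in microglia at E12.5 and 7.05 CPM in BAM at E16.5. Of the granulocyte list, Mpo alone reached 88.8 CPM in microglia. S100a8, S100a9, Ly6g and Camp stayed at or below 0.848 CPM in every microglia library. The part of such cells in the values below was not tested. Mesenchymal and mural markers took 2.48 to 31.5 CPM at E10.5 and reached 692 CPM in 1 BAM library at E18.5. In bulk samples of this kind, fewer cells of a type and less RNA per cell cannot be told apart.

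The 3 C1q genes lie side by side on the minus strand of chromosome 4 (GRCm38), within 18675 bases from 136880129 to 136898803: C1qb at 136880129 to 136886187, C1qc at 136889804 to 136893065 and C1qa at 136895917 to 136898803. C4b (34728380 to 34743882), C2 (34862604 to 34898265) and C3 (57203970 to 57228136) are on chromosome 17, Cfp is on chromosome X (20925454 to 20931555), C3ar1 on chromosome 6 (122847138 to 122856161) and C5ar1 on chromosome 7 (16246743 to 16259540). Exons of C2 overlap those of Gm20547 and of Zbtb12. The larger of these overlaps covers 42.8% of the C2 exon bases, and the counting could have shared or dropped reads there. C4b has a near-identical neighbour, C4a, whose group means stayed at or below 2.03 CPM, so the split between these genes is uncertain. Promoter windows of 300 bases (250 before and 50 after the annotated start, RefSeq, GRCm38.p6) were found for 6 of the 9 genes. Those of C1qb (chr4:136886151-136886450, minus strand) and C1qc (chr4:136892865-136893164, minus strand) are printed because these neighbouring genes moved together across the stages. Those of Cfp (chrX:20931506-20931805, minus strand) and C5ar1 (chr7:16259289-16259588, minus strand) are printed because both genes were higher in BAM. Capitals mark GAGGAA, the core of sites for PU.1 and other ETS factors, TGCTGA, the core of a MAF recognition element, and GAAANNGAA, the core of an interferon-stimulated response element, on either strand.
C1qb: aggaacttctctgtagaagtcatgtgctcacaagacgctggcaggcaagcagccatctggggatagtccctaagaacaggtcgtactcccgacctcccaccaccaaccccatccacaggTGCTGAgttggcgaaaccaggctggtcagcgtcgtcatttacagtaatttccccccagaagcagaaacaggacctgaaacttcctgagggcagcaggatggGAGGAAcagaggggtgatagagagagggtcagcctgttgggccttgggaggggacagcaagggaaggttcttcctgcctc
C1qc: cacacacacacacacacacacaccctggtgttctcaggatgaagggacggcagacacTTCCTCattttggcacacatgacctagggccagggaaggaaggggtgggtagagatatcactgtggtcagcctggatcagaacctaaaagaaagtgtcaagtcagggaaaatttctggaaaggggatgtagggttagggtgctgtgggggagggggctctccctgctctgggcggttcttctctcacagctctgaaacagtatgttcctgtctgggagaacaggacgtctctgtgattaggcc
Cfp: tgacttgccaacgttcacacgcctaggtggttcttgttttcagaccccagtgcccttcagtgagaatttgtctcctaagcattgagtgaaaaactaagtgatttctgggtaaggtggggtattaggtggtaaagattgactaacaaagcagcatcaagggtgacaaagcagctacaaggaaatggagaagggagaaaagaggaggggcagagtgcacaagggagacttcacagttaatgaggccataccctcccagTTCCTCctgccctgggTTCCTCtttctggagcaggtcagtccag
C5ar1: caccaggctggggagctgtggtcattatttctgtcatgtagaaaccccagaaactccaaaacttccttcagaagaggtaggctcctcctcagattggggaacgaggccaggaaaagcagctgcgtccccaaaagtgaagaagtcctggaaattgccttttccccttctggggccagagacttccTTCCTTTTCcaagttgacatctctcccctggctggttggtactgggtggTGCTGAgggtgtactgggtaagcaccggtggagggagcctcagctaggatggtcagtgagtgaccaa
GAGGAA began 30 bases before the start in C1qb and, as its reverse complement, 193 bases before it in C1qc and 6 and 22 bases after it in Cfp. TGCTGA began 131 bases before the start in C1qb and 17 bases before it in C5ar1, where the interferon-type core, on the opposite strand, began 66 bases before it. In the windows not printed, TGCTGA began, as its reverse complement, 182 bases before the start in C3 and 144 bases before it in C3ar1. Of all 32851 promoter windows, 28.3% held GAGGAA, 19.5% TGCTGA and 8.56% GAAANNGAA. The E-box CACGTG, held by 7.15% of the windows, was in none of the 6.

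Per kilobase of exon, which lets genes be compared, C1qb was the most abundant of the 9 genes with a median over the 39 libraries of 2330 CPM per kb. C1qa (957 CPM per kb) and C1qc (917) followed, then C3ar1 (184), C5ar1 (112), Cfp (63.2), C2 (1.44), C3 (1.11) and C4b (0.256). The 3 chains of C1q therefore took from 0.126% of all counts, in 1 BAM library at E10.5, to 1.13%, in 1 microglia library at E18.5. C3ar1 varied least, from 585 to 1246 CPM, a 2.13-fold range. C2 varied 81.8-fold, from 0.556 to 45.5 CPM.

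**Figure D1:**
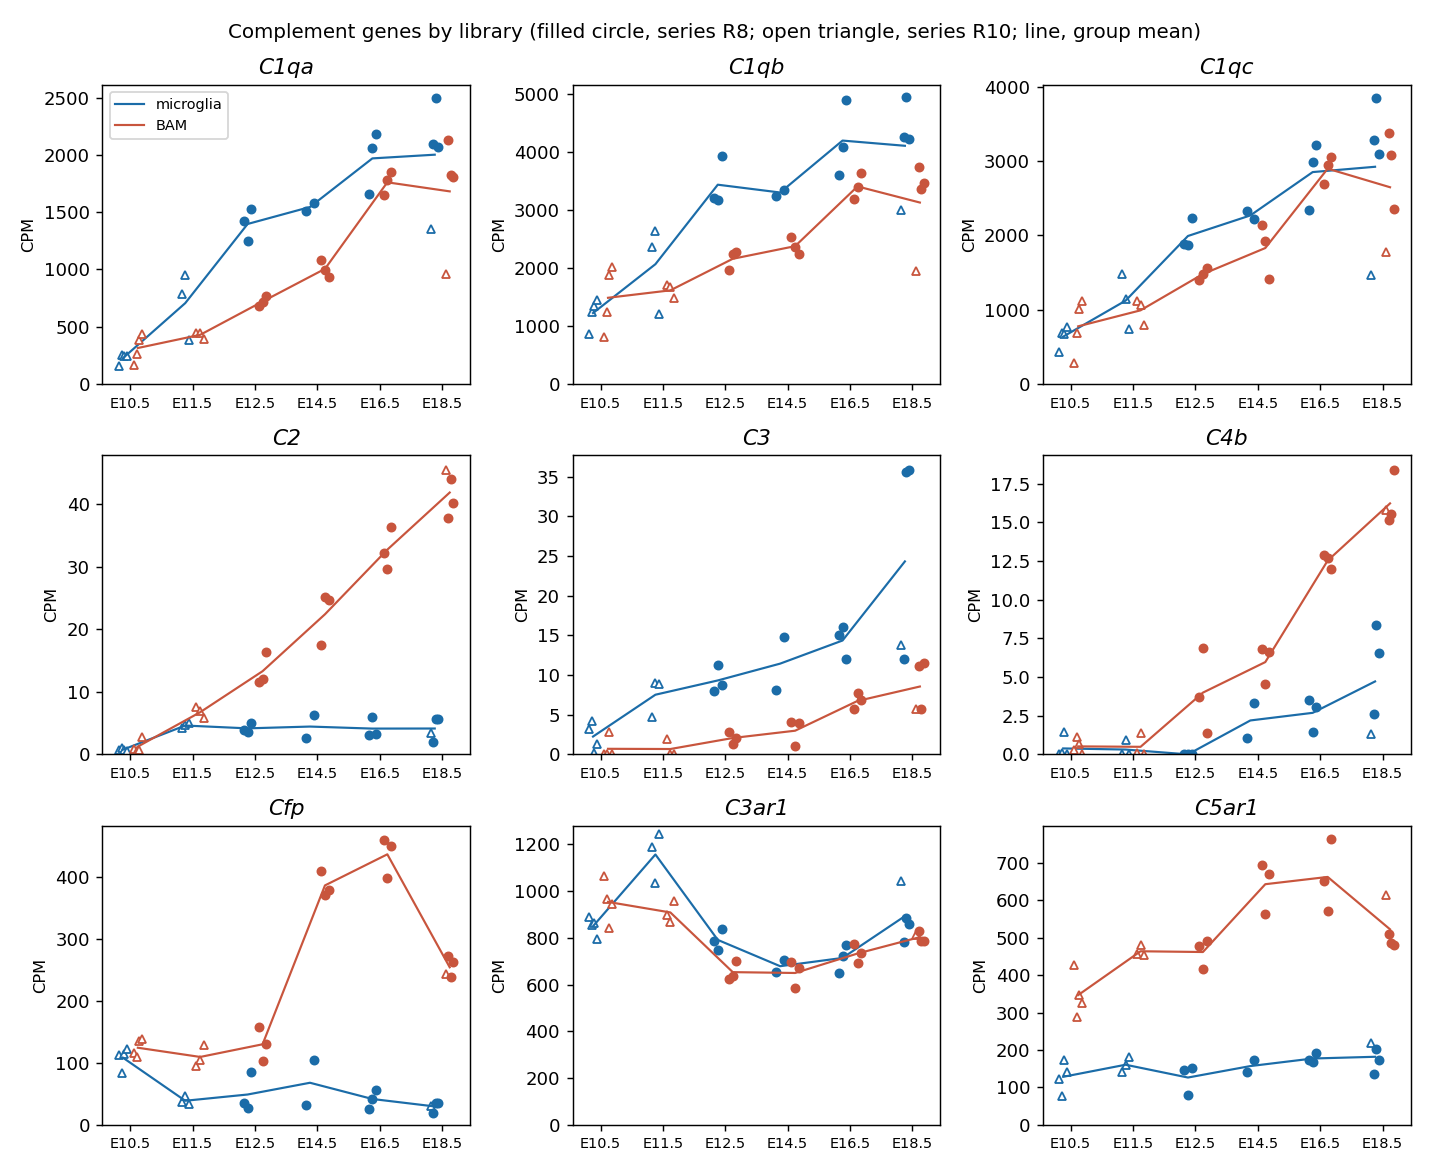
Each panel plots 1 gene in CPM (linear axis from 0) against embryonic stage, with a point for each of the 39 libraries (blue, microglia; red, BAM; filled circles, series R8; open triangles, series R10) and lines through the group means. C5ar1 in BAM lies above microglia at every stage, the C2 and C4b group means climb in BAM from E11.5, and the R10 libraries at E18.5 hold the lowest C1q values of their groups.

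The first question was which of these genes separated the populations throughout development. As the mean over the 6 stages, 7 of the 9 genes passed the test (edgeR quasi-likelihood F test, Benjamini-Hochberg adjusted p under 0.05 over all 22061 genes), against 28.2% of all tested genes. Cfp, whose product is properdin, was higher in BAM by 2.01 ± 0.13 on the log2 scale (± SE throughout for log2 values, 4.03-fold, edgeR adjusted p = 1.01e-14). C2, the protease of the classical convertase, was higher by 1.93 ± 0.16 (3.82-fold, edgeR adjusted p = 6.34e-12). C5ar1, the receptor for C5a, was higher by 1.71 ± 0.09 (3.28-fold, edgeR adjusted p = 3.35e-17). C4b was also called higher (edgeR adjusted p = 0.00108), with no fold given because microglia had no count at E12.5.

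In the other direction, C3, the central component of the cascade, was lower in BAM by a log2 change of -1.996 ± 0.43 (3.99-fold, edgeR adjusted p = 0.000379). C1qa (-0.37 ± 0.11, edgeR adjusted p = 0.00854) and C1qb (-0.32 ± 0.10, edgeR adjusted p = 0.0158) were lower by 1.30-fold and 1.25-fold. The C1qb call ended in 4 of the fits that left out 1 library, at adjusted p-values of 0.0501 to 0.0578 in edgeR. C1qc had a value of -0.13 ± 0.13 (edgeR adjusted p = 0.572, 95% interval -0.39 to 0.13) and C3ar1 of -0.11 ± 0.05 (edgeR adjusted p = 0.0894, 95% interval -0.20 to -0.01). The median over the 9 genes was -0.11, beside -0.02 over all tested genes.

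Stage by stage, the number of these genes called was 1 of 9 at E10.5 (C5ar1 alone, where 4.48% of all tested genes were called), 2 of 9 at E11.5 (Cfp and C5ar1, against 6.66%) and 5 of 9 at E12.5 (C2, C4b, Cfp and C5ar1 higher and C1qa lower, against 8.54%). At E14.5, E16.5 and E18.5 it was 3 of 9 each time, C2, Cfp and C5ar1, all higher in BAM, against 7.18%, 13.8% and 15.5% of all tested genes. The E11.5 count was 4 with a block of adjacent library numbers and in 3 other settings, which added C3, C1qa or C3ar1, all lower in BAM. Fitted on the compared groups alone, the counts at E16.5 and E18.5 were 5 each, with C3 lower and C4b higher in BAM as the added genes. Ranges without overlap are given below as descriptions of the libraries. Their share over all tested genes was not computed, and groups of 2 to 4 libraries can lie apart by chance.

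**Figure D2:**
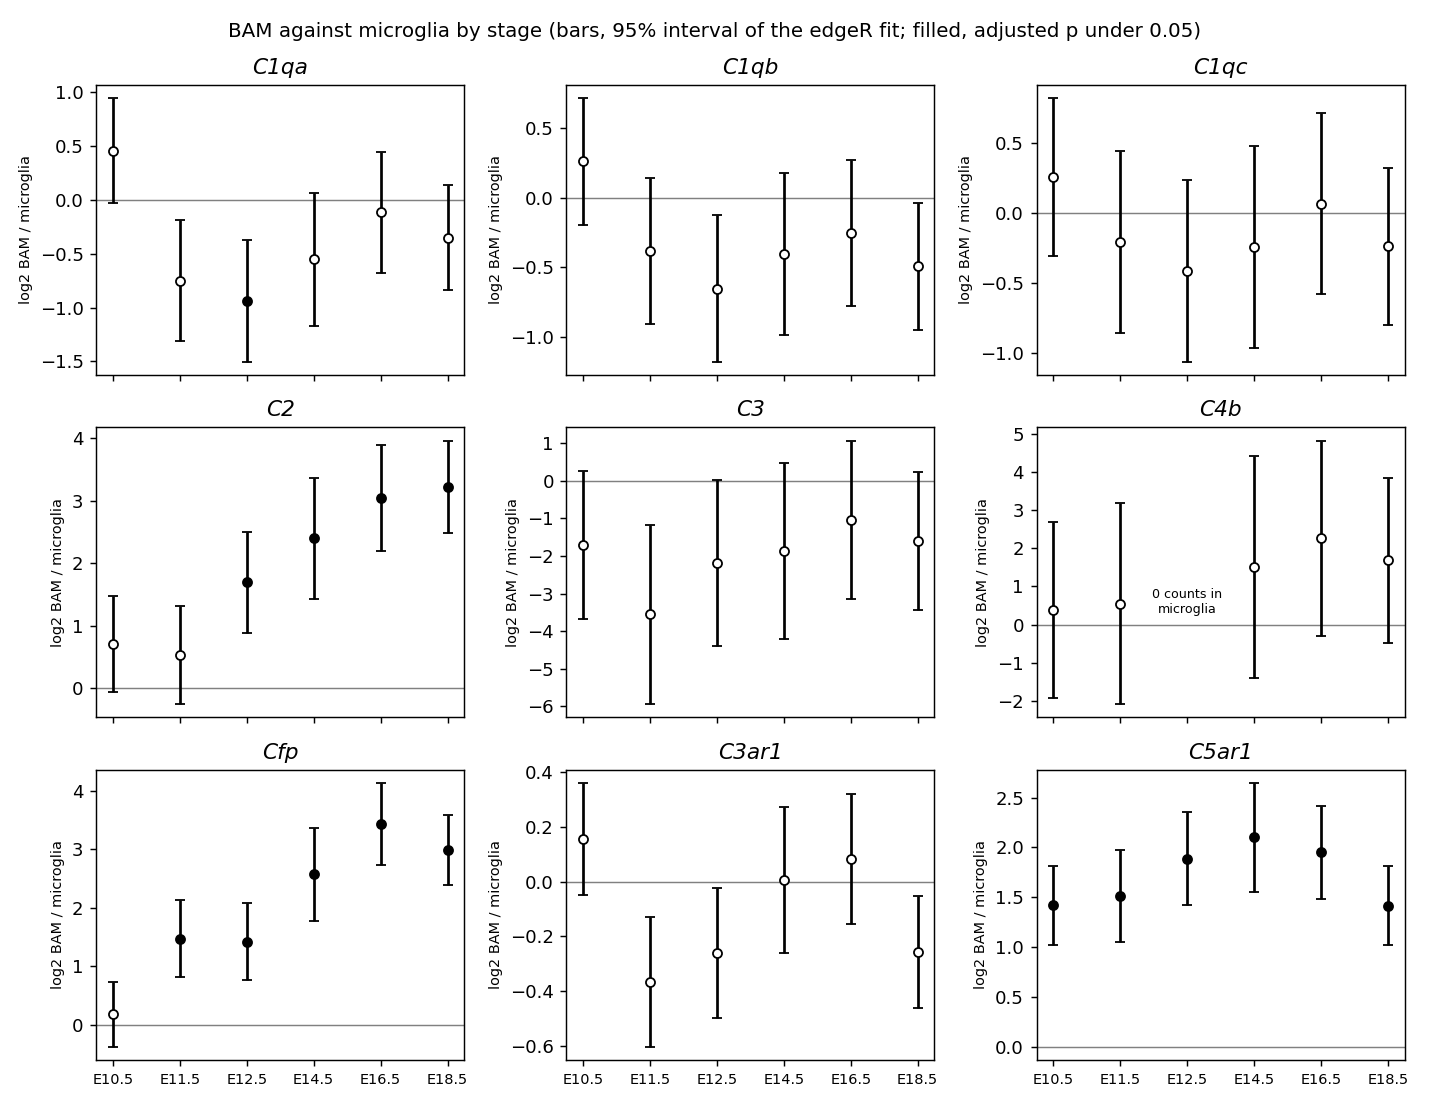
Each panel plots for 1 gene the log2 difference of BAM over microglia (positive, higher in BAM) at each stage, with 95% intervals from the edgeR fit and filled points where the adjusted p was under 0.05; vertical scales differ between panels. C2 rises from 0.71 at E10.5 to 3.22 at E18.5, C5ar1 stays between 1.41 and 2.10, and C1qa reaches its lowest value, -0.94, at E12.5.

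Among the recognition chains, C1qa was higher at E18.5 than at E10.5 in both populations, with values between them that differed by population. In microglia its libraries read 156, 250.1, 246 and 244 CPM at E10.5, 781, 951 and 383 CPM at E11.5, and 1421, 1243 and 1525 CPM at E12.5. In BAM they read 167, 263, 385 and 438 CPM at E10.5, 448, 448 and 389.7 CPM at E11.5, and 678, 715 and 765 CPM at E12.5. The populations overlapped at E10.5 and E11.5, and all 3 microglia libraries were above all 3 BAM libraries at E12.5. That difference was -0.94 ± 0.28 (1.92-fold lower in BAM, edgeR adjusted p = 0.0262), but it did not pass in 5 of the 6 fits without 1 of these libraries, where the adjusted p in edgeR ran up to 0.133.

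At later stages the difference in C1qa did not pass in the fit over all groups. At E14.5 microglia read 1507 and 1583 CPM against 1083, 995 and 934 CPM in BAM, still without overlap, with a log2 difference of -0.55 ± 0.31 (edgeR adjusted p = 0.412, and 0.0269 with the compared groups alone). At E16.5 the values were 1661, 2062 and 2185 CPM against 1649, 1778 and 1854 CPM, and the groups overlapped. At E18.5 they were 1355, 2091, 2494 and 2067 CPM against 963, 2128, 1826 and 1809 CPM, with the lowest value of each group in its R10 library (log2 difference -0.35 ± 0.24, edgeR adjusted p = 0.395).

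C1qb and C1qc followed C1qa. C1qb means were 1222 ± 252 CPM (± SD for levels) in microglia and 1485 ± 565 CPM in BAM at E10.5 (n = 4 each), 3437 ± 423 and 2158 ± 175 CPM at E12.5 (n = 3 each), and 4109 ± 814 and 3129 ± 802 CPM at E18.5 (n = 4 each). C1qc means at the same stages were 637 ± 140.0 and 776 ± 376 CPM, 1993 ± 209 and 1480.4 ± 83.1 CPM, and 2926 ± 1024 and 2650.4 ± 726 CPM. For both genes all microglia libraries exceeded all BAM libraries at E12.5 and E14.5, and the populations overlapped at the other 4 stages. No single-stage difference of C1qb or C1qc passed in the fit over all groups, the widest for C1qb being -0.65 ± 0.26 at E12.5 (edgeR adjusted p = 0.136), which was called with a block of adjacent library numbers (edgeR adjusted p = 0.00746) and with the compared groups alone (0.0243). At E18.5 C1qb had -0.49 ± 0.22 (edgeR adjusted p = 0.154), and the block called it too (-0.47, edgeR adjusted p = 0.0136).

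The group means of the chains rose by different amounts. The ratio test below could not decide this, because with so few libraries per group no adjusted p could fall under 0.05. The ratio of C1qa to C1qb, both per kb of exon, was 0.192 ± 0.0145 in microglia and 0.220 ± 0.00657 in BAM at E10.5 (n = 4 each). By E18.5 it was 0.506 ± 0.0230 in microglia and 0.557 ± 0.0336 in BAM (n = 4 each), a change of 2.64-fold and 2.53-fold with no overlap between the stages (exact permutation test over libraries, two-sided p = 0.0286, the smallest that 4 against 4 allows, 0.0980 after adjustment over 12 comparisons). Libraries of a group agreed closely even where the levels did not: the R10 BAM library at E18.5 had a C1qa level of 963 CPM against 1809 to 2128 CPM in the others, and a ratio of 0.517 against 0.545 to 0.596.

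Within R10 alone the change in this ratio from E10.5 to E18.5 was 1.30 on the log2 scale in microglia and 1.23 in BAM, beside 1.40 and 1.34 with all E18.5 libraries. The means by stage in BAM were 0.220, 0.278, 0.349, 0.442, 0.541 and 0.557, and those in microglia 0.192, 0.352, 0.426, 0.489, 0.492 and 0.506. From E10.5 to E11.5 the ratio changed 1.83-fold in microglia and 1.26-fold in BAM (exact permutation test, two-sided p = 0.0571 each with n = 3 and 4, the smallest possible there). Of the 6 comparisons between stages made for this ratio, 6 had ranges that did not overlap. For the ratio of C1qc to C1qb it was 1 of 6, BAM at E18.5 over E10.5 (0.481 ± 0.0648 against 0.282 ± 0.0553, n = 4 each, 1.72-fold, exact two-sided permutation p = 0.0286, 0.0980 adjusted). In microglia that C1qc ratio went from 0.293 to 0.391, and with the R10 library alone at E18.5 its log2 change was -0.08, the opposite sign.

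**Figure D3:**
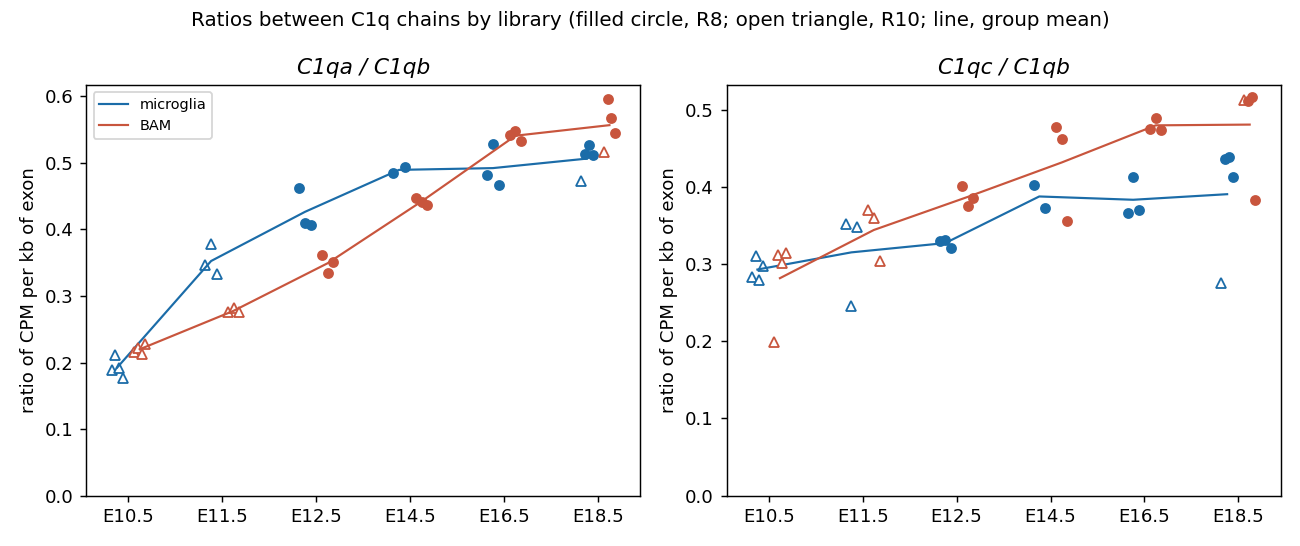
The panels plot for each library the ratio of C1qa (left) and C1qc (right) to C1qb, both in CPM per kb of exon, against stage (blue, microglia; red, BAM; open triangles, series R10; lines, group means). The C1qa ratio runs from 0.177 to 0.596 over the 39 libraries with little spread inside a group, and the C1qc ratio spreads more.

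C2 rose in both populations at first and by E18.5 was 9.35-fold higher in BAM. In microglia the 4 libraries at E10.5 read 0.683, 1.05, 0.694 and 0.556 CPM, and those at E11.5 read 4.14, 4.64 and 5.03 CPM. In BAM they read 0.917, 0.599, 0.739 and 2.73 CPM at E10.5 and 7.51, 6.89 and 5.80 CPM at E11.5. Both populations thus rose over this day with no overlap between the stages, by 2.64 ± 0.39 in microglia (6.25-fold, edgeR adjusted p = 1.09e-05) and 2.47 ± 0.38 in BAM (5.54-fold, edgeR adjusted p = 6.58e-05, and 0.0682 with the BAM groups at these stages fitted alone).

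From E12.5 to E18.5 the microglia group means were 4.15, 4.44, 4.12 and 4.13 CPM. BAM went from 11.52, 12.03 and 16.3 CPM at E12.5 to 17.4, 25.1 and 24.6 CPM at E14.5, 32.1, 29.6 and 36.4 CPM at E16.5, and 45.5, 37.7, 44.0 and 40.1 CPM at E18.5. All BAM libraries were above all microglia libraries at the 5 stages from E11.5. The log2 difference was 0.71 ± 0.38 at E10.5 (edgeR adjusted p = 0.346), 0.53 ± 0.39 at E11.5 (0.524), 1.70 ± 0.40 at E12.5 (0.00324), 2.40 ± 0.47 at E14.5 (0.000508), 3.05 ± 0.42 at E16.5 (8.79e-07) and 3.22 ± 0.36 at E18.5 (1.34e-08). Without 1 of the 2 microglia libraries at E14.5, replicate 1, that stage had 1.86 and an edgeR adjusted p of 0.0897.

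C4b, the other source of the classical convertase, was sparse until E12.5. At E10.5 and E11.5 every library of both populations was at or below 1.46 CPM, and 6 of these 14 libraries had no count. At E12.5 the 3 BAM libraries read 3.72, 6.85 and 1.40 CPM and the 3 microglia libraries had 0 counts. Placing 3 counts in that microglia group, C4b was 81.1-fold higher in BAM there (edgeR adjusted p = 0.00413). This bound covers counting error only, not the spread between libraries, and is lower if both reads of a pair were counted.

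At E16.5 C4b read 12.9, 12.7 and 11.996 CPM in BAM and 3.49, 1.47 and 3.09 CPM in microglia, and at E18.5 it read 15.8, 15.1, 15.6 and 18.4 CPM against 1.32, 2.62, 8.36 and 6.55 CPM. BAM libraries were above microglia without overlap at the 4 stages from E12.5, yet the tests at E16.5 (2.26 ± 1.26, edgeR adjusted p = 0.280) and E18.5 (1.68 ± 1.06, edgeR adjusted p = 0.348) did not pass in the fit over all groups. Fitted on the compared groups alone both passed, at edgeR adjusted p-values of 0.00143 and 0.0195. Fibroblasts and mural cells can also express C4b. Their 8 markers summed to 196 to 339 CPM in the 3 microglia libraries at E12.5, where C4b had no count, and to 190.4 to 483 CPM in the 3 BAM libraries. At E18.5, where C4b was highest in BAM, they summed to 196 to 692 CPM in BAM and 117 to 237 CPM in microglia. Their part in the later C4b levels was not tested.

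C3 was higher in microglia as the mean over stages. At E11.5 microglia read 4.70, 8.99 and 8.86 CPM and BAM 1.94, 0 and 0.0811 CPM. At E12.5 they read 8.01, 11.2 and 8.71 CPM against 2.81, 1.32 and 2.05 CPM, and at E16.5 15.002, 16.0 and 12.03 CPM against 5.71, 7.68 and 6.79 CPM. At 5 of the 6 stages all microglia libraries were above all BAM libraries, the exception being E10.5, where 3 of 4 BAM libraries had no count and the fourth read 2.80 CPM against 0.219 to 4.16 CPM in microglia. How many of all tested genes lay apart in this way was not computed.

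No single-stage difference of C3 passed in the fit over all groups, with log2 values of -1.71 ± 0.96, -3.55 ± 1.17, -2.19 ± 1.09, -1.88 ± 1.15, -1.04 ± 1.04 and -1.61 ± 0.91 in order of stage and edgeR adjusted p-values from 0.0633 at E11.5 to 0.624 at E16.5. DESeq2 called E11.5 (adjusted p = 0.0409), and fits on the compared groups alone called E12.5, E16.5 and E18.5 (edgeR adjusted p = 0.0138, 0.0159 and 0.0126). At E18.5 the microglia libraries read 13.8, 11.97, 35.6 and 35.9 CPM, a wide spread within 1 group, and the BAM libraries 5.72, 11.2, 5.74 and 11.55 CPM.

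Cfp overlapped between the populations at E10.5 and was higher in BAM at each of the 5 later stages. At E10.5 microglia read 113, 83.5, 115 and 123 CPM and BAM 115, 109.7, 135 and 139 CPM, overlapping, with a log2 difference of 0.18 ± 0.27 (edgeR adjusted p = 0.888, 95% interval -0.37 to 0.73). At E11.5 microglia had fallen to 36.4, 47.3 and 33.1 CPM while BAM read 95.1, 104 and 129.6 CPM, and from here on no library of the populations overlapped. The fall in microglia was -1.45 ± 0.31 on the log2 scale (2.73-fold, edgeR adjusted p = 0.00179).

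BAM read 158, 103 and 130.2 CPM at E12.5, with all libraries higher at E14.5 (409, 372 and 379 CPM) and E16.5 (461, 399 and 451 CPM). At E18.5 they read 243, 273, 238 and 263 CPM, below every library at E14.5 and E16.5. Microglia read 35.0, 27.4 and 84.7 CPM at E12.5, 31.9 and 104 CPM at E14.5, 26.3, 42.3 and 56.8 CPM at E16.5, and 29.7, 19.0, 34.5 and 35.8 CPM at E18.5. The log2 difference went from 1.47 ± 0.32 at E11.5 (edgeR adjusted p = 0.00247) and 1.42 ± 0.32 at E12.5 (0.00229) to 2.57 ± 0.39 at E14.5 (1.10e-05), 3.43 ± 0.35 at E16.5 (2.16e-09) and 2.99 ± 0.30 at E18.5 (8.18e-10).

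Within the microglia groups from E12.5 on, the library with the most Cfp also had the most BAM marker counts, which was not so at E10.5 and E11.5. The E12.5 library at 84.7 CPM had a BAM marker sum of 5566 CPM against 1832 and 2965 CPM in the others of its group, and the E14.5 library at 104 CPM had 2971 against 1932 CPM. That E12.5 library had a microglia marker sum of 6631 CPM against 10193 and 11538 CPM. At E16.5 the BAM marker sums were 2309, 2454 and 2883 CPM with Cfp at 26.3, 42.3 and 56.8 CPM. At E18.5 the library with Cfp at 35.8 CPM had a sum of 2245 CPM against 2009 to 2131 CPM. At E11.5 microglia had BAM marker sums of 5022 to 7451 CPM with Cfp at 33.1 to 47.3 CPM, and at E10.5 sums of 2351 to 4078 CPM with Cfp at 83.5 to 123 CPM. The part of these cells in the Cfp values was not tested.

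Of the receptors, C5ar1 separated the populations at every stage. At E10.5 BAM read 426, 288, 348 and 324 CPM and microglia 123, 76.1, 172 and 142 CPM. At E14.5 BAM read 694, 563 and 671 CPM and microglia 140.2 and 174 CPM. At E18.5 the values were 614, 508, 485 and 481 CPM against 218, 136, 202 and 172 CPM. The lowest of all 20 BAM libraries, 288 CPM, was above the highest of all 19 microglia libraries, 218 CPM.

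The log2 difference of C5ar1 was 1.42 ± 0.20, 1.51 ± 0.23, 1.89 ± 0.23, 2.10 ± 0.27, 1.95 ± 0.23 and 1.41 ± 0.20 in order of stage, and the edgeR adjusted p was at most 1.22e-05. In order of group mean, all 6 BAM groups came first, from 662 ± 96.5 CPM at E16.5 down to 347 ± 58.5 CPM at E10.5, and the microglia groups followed from 182 ± 36.1 CPM at E18.5 to 126 ± 39.7 CPM at E12.5. Among neighbours in that order, the mean ± SD intervals were apart in 2 of 11 cases, between BAM at E12.5 and E10.5 and between BAM at E10.5 and microglia at E18.5, and touched in the other 9.

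C3ar1, the receptor for C3a, had the narrowest range of the 9 genes. Its libraries at E11.5 read 1188, 1036 and 1246 CPM in microglia and 899, 869 and 958 CPM in BAM, and at E12.5 789, 747 and 838 CPM against 624, 636 and 699.9 CPM. Microglia were above BAM without overlap at these 2 stages and overlapped with BAM at the other 4. The difference passed at no stage, with log2 values of 0.16 ± 0.10 at E10.5 (edgeR adjusted p = 0.490), -0.37 ± 0.12 at E11.5 (0.0523) and -0.26 ± 0.10 at E18.5 (0.0862); at E11.5 DESeq2 (adjusted p = 0.0136) and the block of adjacent library numbers (edgeR adjusted p = 0.0466) called it.

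The ratio of C3ar1 to C5ar1 carries the C5ar1 difference given above and is no separate result. Per kb of exon, C3ar1 was 2.25 to 6.70 times C5ar1 in the 19 microglia libraries and 0.575 to 2.00 times C5ar1 in the 20 BAM libraries, with no overlap. In BAM the mean ratio was 1.67 ± 0.256 at E10.5 (n = 4), 0.605 ± 0.0136 at E14.5 (n = 3) and 0.926 ± 0.0902 at E18.5 (n = 4).

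A further set of comparisons asked how the genes changed with stage. From E10.5 to E11.5, where all libraries were R10, 5 of 9 passed in microglia (8.26% of all tested genes) and 1 of 9, C2, in BAM (4.42%). In microglia C1qa rose by 1.69 ± 0.26 (3.24-fold, edgeR adjusted p = 2.00e-05), C1qb by 0.80 ± 0.24 (1.74-fold, edgeR adjusted p = 0.0321) and C3ar1 by 0.47 ± 0.11 (1.39-fold, edgeR adjusted p = 0.00376), besides the rise of C2 and the fall of Cfp given above. The C1qb call ended in 4 of the fits without 1 library (edgeR adjusted p up to 0.215) and with these groups alone. C1qc had 0.85 ± 0.30 (edgeR adjusted p = 0.0690), and C1qa in BAM had 0.48 ± 0.26 (edgeR adjusted p = 0.319); the difference between the populations over this day was not tested.

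From E12.5 to E18.5, mostly within R8, 2 of 9 genes passed in microglia (6.74% of all tested genes) and 4 of 9 in BAM (10.6%), all upward. In BAM C2 rose by 1.70 ± 0.37 (3.24-fold, edgeR adjusted p = 0.00185), C1qa by 1.27 ± 0.27 (2.42-fold, edgeR adjusted p = 0.00108), Cfp by 1.03 ± 0.30 (2.04-fold, edgeR adjusted p = 0.0215) and C3ar1 by 0.35 ± 0.11 (1.27-fold, edgeR adjusted p = 0.0349). The last 2 did not pass with the R10 libraries at E18.5 left out (edgeR adjusted p = 0.0529 and 0.0960). The C3ar1 call also ended without any of E12.5 replicates 1, 2 and 3 or E18.5 replicate 2 (edgeR adjusted p up to 0.288), with the compared groups alone and with no filter, and the BAM count was 2 of 9 without E12.5 replicate 2 or 3 or E18.5 replicate 2. C1qb (0.58 ± 0.24, edgeR adjusted p = 0.138) and C1qc (0.89 ± 0.30, edgeR adjusted p = 0.0563) did not pass, though 6 alternative settings called C1qc.

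In microglia over that span C4b passed (edgeR adjusted p = 0.00412), with 0 counts at E12.5. Placing 3 counts in the E12.5 group gave a 95.8-fold rise to E18.5. This bound covers counting error only, not the spread between libraries, and is lower if both reads of a pair were counted. At E11.5, 2 of the 3 microglia libraries had no count of C4b and the highest had 44. C5ar1 rose by 0.71 ± 0.21 (1.63-fold, edgeR adjusted p = 0.0350), which ended with the R10 library left out (0.51, edgeR adjusted p = 0.191), with the compared groups alone (0.0904) and without any of 3 other libraries (E12.5 replicates 2 and 3, E18.5 replicate 3). C1qa had 0.68 ± 0.26 there (edgeR adjusted p = 0.122, and 0.0426 with the compared groups alone) and C3ar1 0.34 ± 0.11 (edgeR adjusted p = 0.0514).

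Over the whole window from E10.5 to E18.5, 8 of 9 genes passed in microglia (35.3% of all tested genes), 7 of them higher at E18.5, and 9 of 9 in BAM (37.6%), 8 of them higher. C1qa rose by 3.22 ± 0.26 in microglia (9.29-fold, edgeR adjusted p = 6.00e-12) and 2.41 ± 0.25 in BAM (5.30-fold, edgeR adjusted p = 1.75e-09). C1qc rose by 2.25 ± 0.29 and 1.76 ± 0.28 and C1qb by 1.81 ± 0.23 and 1.05 ± 0.23 in the same order. C2 rose by 2.53 ± 0.38 in microglia (5.79-fold) and 5.05 ± 0.40 in BAM (33.2-fold, edgeR adjusted p = 3.60e-12). Cfp went in opposite directions, falling in microglia (-1.80 ± 0.28, edgeR adjusted p = 4.57e-06) and rising in BAM (1.01 ± 0.27, edgeR adjusted p = 0.00386). C3ar1 fell by 0.28 on the log2 scale in BAM (SE 0.10, edgeR adjusted p = 0.0304) and was the gene not called in microglia. The BAM call ended without 1 of 4 libraries, E10.5 replicates 1 and 2 and E18.5 replicates 3 and 4 (edgeR adjusted p up to 0.131). It also ended with RLE factors (edgeR adjusted p = 0.0732) and with no filter (0.0537). With the R8 libraries at E18.5 left out the C3ar1 change in BAM was -0.30. The median over all tested genes was itself 0.29 in both populations, and each change stands beside that shift.

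The E10.5 libraries were all R10 and most E18.5 libraries R8, so stage and series moved together over this window. With E18.5 kept to its R10 library, each population had 1 library there (n = 1), whose spread was assumed to be that of the other groups, so these values have no replicate check at E18.5. In that fit 5 of 9 genes passed in microglia and 4 of 9 in BAM. C1qa (2.65 in microglia and 1.56 in BAM), C1qc (1.26 and 1.14) and C2 (2.24 and 5.13) passed in both populations. C1qb (1.35) and Cfp (-1.82) passed in microglia and C4b (4.86) in BAM. C1qb in BAM had 0.33 there (edgeR adjusted p = 0.585) against 1.05 with all libraries. Leaving out either series at E18.5 ended the C5ar1 calls, which were 0.57 ± 0.19 in microglia and 0.56 ± 0.19 in BAM with all libraries (edgeR adjusted p = 0.0205 and 0.0196).

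**Figure D4:**
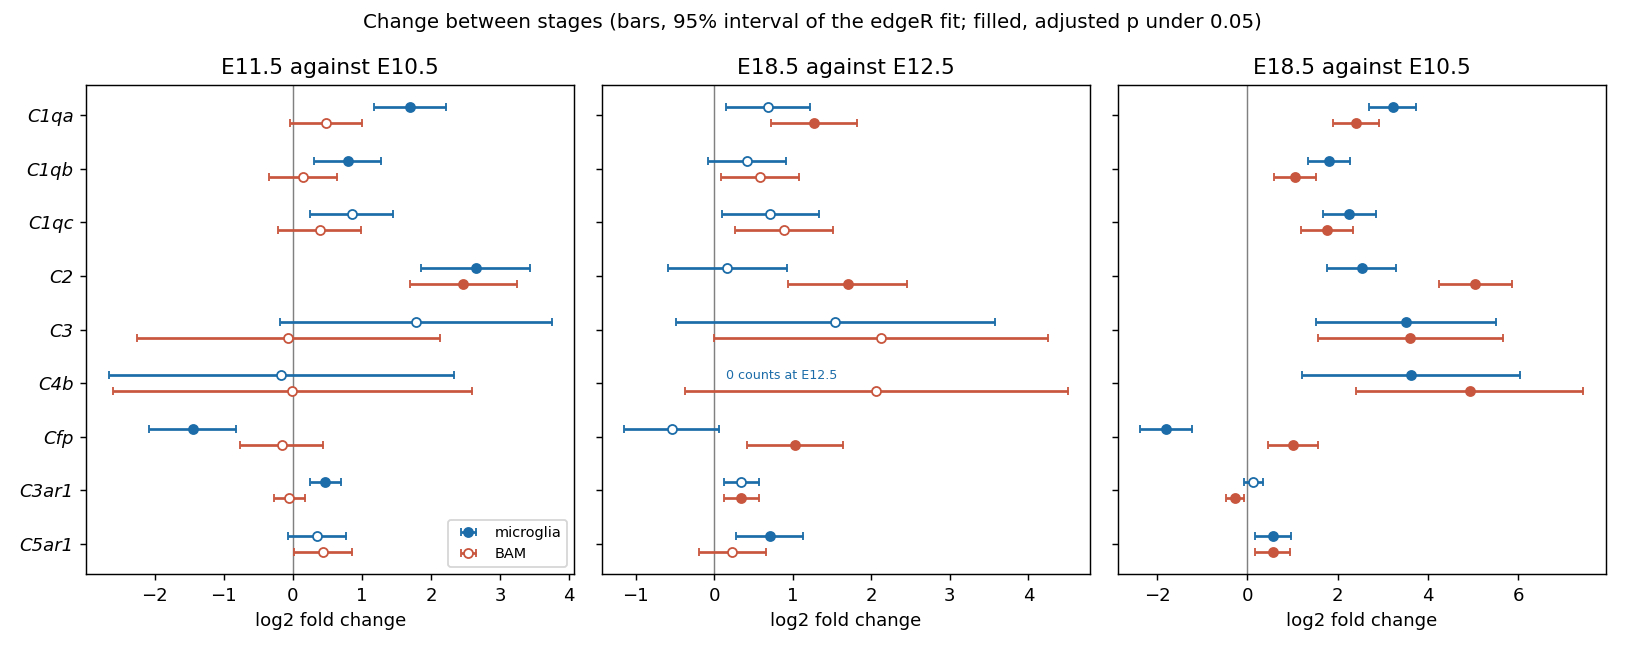
The panels plot the log2 change of each gene from E10.5 to E11.5, from E12.5 to E18.5 and from E10.5 to E18.5 (blue, microglia; red, BAM) with 95% intervals from the edgeR fit and filled points where the adjusted p was under 0.05; horizontal scales differ. The C1q chains lie to the right of 0 in every panel, C2 reaches 5.05 in BAM, and Cfp lies on opposite sides of 0 in the populations in the right panel.

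Whether the populations changed by different amounts was tested as an interaction. From E10.5 to E18.5, 2 of 9 genes passed (6.63% of all tested genes): Cfp, whose change was greater in BAM by 2.81 ± 0.39 (edgeR adjusted p = 4.74e-06), and C2, greater by 2.52 ± 0.51 (edgeR adjusted p = 0.00104). Within R10, again with 1 library per population at E18.5 and the spread taken from the other groups, Cfp had 2.72 (edgeR adjusted p = 0.0224) and C2 had 2.89 (edgeR adjusted p = 0.0675). C1qa had -0.81 ± 0.34 (edgeR adjusted p = 0.169) and C3ar1 -0.41 ± 0.14 (edgeR adjusted p = 0.0796). Without BAM E10.5 replicate 3 the count was 4 of 9. From E12.5 to E18.5, 1 of 9 passed (2.19%), Cfp at 1.57 ± 0.42 (edgeR adjusted p = 0.0380). That call ended in 9 of the fits without 1 library, with the compared groups alone and with the R10 libraries at E18.5 left out, and without microglia E12.5 replicate 3, the library with raised Cfp and BAM markers, it was 0.94 (edgeR adjusted p = 0.347). C2 had 1.53 ± 0.52 over that span (edgeR adjusted p = 0.142).

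The rest of the system was read from 49 further complement genes, of which 37 were tested. As the mean over stages, 5 were higher in BAM, 8 lower and 24 did not pass, a share of calls that stands beside the 28.2% of all tested genes. The lectin pathway genes Fcna, a ficolin, and Colec12, a scavenger collectin, were higher in BAM: 3.86 ± 0.19 (edgeR adjusted p = 1.83e-18) and 3.60 ± 0.11 (edgeR adjusted p = 1.23e-23). Fcna reached 721 ± 55.7 CPM in BAM at E16.5 against 28.4 ± 10.4 CPM in microglia (n = 3 each), and Colec12 819.5 ± 113 against 25.5 ± 6.18 CPM. C1ra, a protease of the C1 complex, was also higher in BAM, while C1s1 and C1s2, genes of its partner protease, had group means of at most 0.255 and 0.298 CPM.

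Among the regulators, Cr1l, the rodent membrane regulator Crry, had -0.03 ± 0.05 (edgeR adjusted p = 0.804) and group means between 72.3 and 118 CPM. Of 10 membrane regulators 9 were tested and Cd59a alone passed, higher in BAM. Factor B (Cfb) was lower in BAM, with group means from 0.348 to 4.15 CPM, and Cfd had 2 counts in all 39 libraries.

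The receptors and binding proteins went mostly the other way, 6 of 10 lower in BAM and 1, Cd93, higher. Itgam, the alpha chain of the C3b-fragment receptor CR3, was lower in BAM by -2.34 ± 0.08 on the log2 scale (edgeR adjusted p = 1.65e-22), and its partner Itgb2 by -1.41 ± 0.06 (edgeR adjusted p = 4.84e-19). Itgax, the alpha chain of CR4, went from 2.25 to 66.2 CPM in microglia between E10.5 and E18.5 and stayed at or below 1.82 CPM in BAM groups. C5ar2, the second C5a receptor, was lower in BAM (-0.74 ± 0.12, edgeR adjusted p = 5.10e-06), the opposite direction to C5ar1. Lrp1 (-1.33 ± 0.07) and Calr (-0.34 ± 0.06), an uptake receptor and a C1q-binding chaperone, were lower too.

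Of the 7 terminal components, C8g and C6 were the 2 tested and neither passed. Hc, which encodes C5, had 18 counts in all libraries, C9 had 26 and C7 none.

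**Figure D5:**
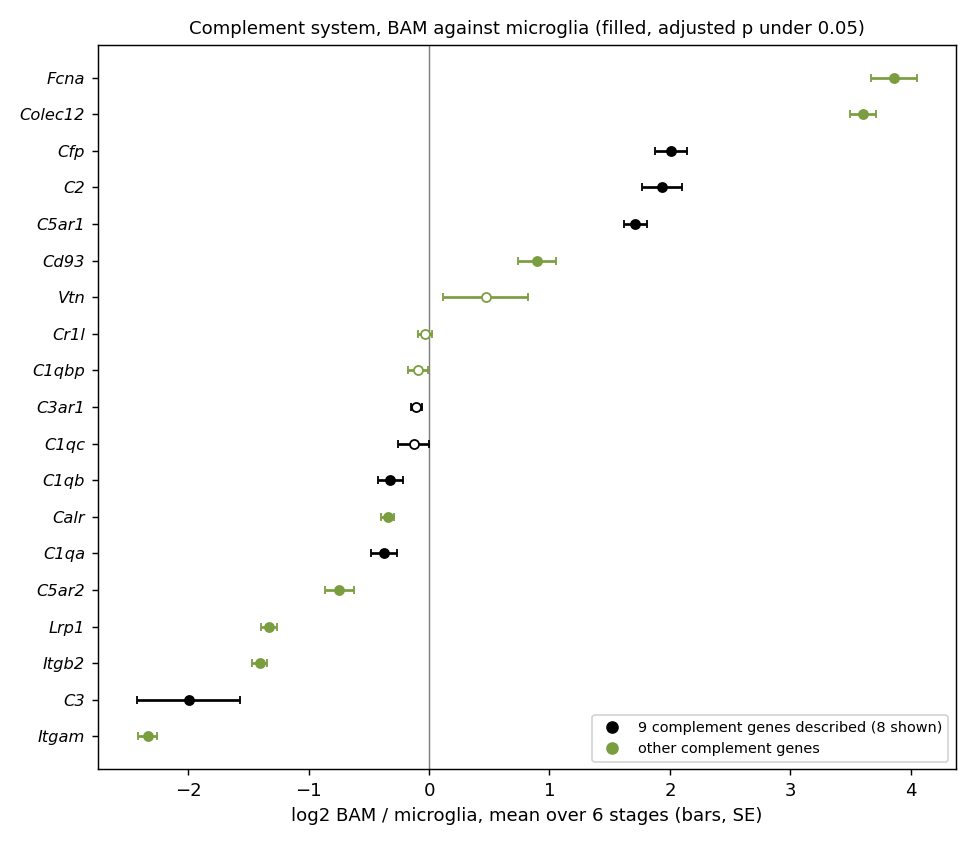
The log2 difference of BAM over microglia as the mean over 6 stages (bars, SE) is plotted for 8 of the 9 genes described (black) and 11 other complement genes of sufficient level (green), with filled points where the adjusted p was under 0.05. Fcna and Colec12 lie highest, Cfp, C2 and C5ar1 also lie above 0, and Itgam and C3 lie lowest. C4b and Itgax are not drawn because a group had 0 or 2 counts.

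Over the 12 group means of log2 CPM, the 3 C1q chains had Pearson r of 0.97 to 0.99 with each other, C3 had 0.80 to 0.85 with them, and Cfp had 0.84 with C5ar1. These are descriptions across groups that share libraries and depth. Among 7714 other genes of sufficient level, those most like C1qa were Wdr13 (r = 0.98), Npc2 (0.98) and Hivep3 (0.98), and the same 3 genes were most like C1qc. C1qb was most like Mib2 (0.99), Rgs10 (0.97) and Crybb1 (0.97). C2 was most like Siglec1 (0.98), Adam33 (0.98) and Cd4 (0.98), C3 most like Cd82 (0.96), Sall1 (0.96) and Mvb12b (0.96), and C5ar1 most like Msantd4 (0.98), Rhobtb1 (0.98) and Sept8 (0.97). For C4b, Cfp and C3ar1 the highest values were 0.94 with Scly, 0.94 with Dusp22 and 0.94 with Ap3b1.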

How the data were processed

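Raw RNA-seq counts per gene were deposited by the authors for 39 sorted populations. Per the labels' protocols, 2 ng of total RNA (PicoPure kit) was amplified by a modified SMART-seq2 method, made into Nextera XT libraries with ERCC spike-ins and sequenced in pairs on an Illumina HiSeq. Per the submitters' processing notes, STAR and featureCounts were used with GRCm38; versions, the strand setting and the counting of pairs are not given in the sources used here. The table held 49977 values of 2 beside 21280 values of 1, so counts may hold both reads of a pair and intervals from counting cover counting error only.

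Genes that passed filterByExpr (22061 of 53379, holding 99.973% of counts) were scaled by TMM and fitted in edgeR 4.0.16 (R 4.3.3, limma 3.58.1) with 12 group coefficients and 27 residual degrees of freedom, and 15 comparisons were tested by the quasi-likelihood F test with Benjamini-Hochberg adjustment over all tested genes. On simulated data, for BAM against microglia at E18.5 over 20794 genes, 56 of 100 genes changed 2-fold and 86 of 100 changed 4-fold were recovered, with 5 false calls. Levels are CPM of raw library totals. No identical libraries were found. Alternatives were DESeq2 1.42.0, RLE factors, halved counts, no filter, a 2-fold threshold, the compared groups alone, a block of adjacent library numbers, and leaving out a series or a library. Replicate numbers follow accession order and pair nothing. Genes were named as the listed members, the further complement genes whose average log2 CPM reached 4, and the 3 most alike genes by correlation; C1ra, C1s1, C1s2, C4a, Cfb, Cfd, Cd59a, C6, C7, C8g, C9 and Hc were named after their values were seen. One further complement gene is not reported here. The members and lists were chosen with earlier results of these data known.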

Additional observations from a re-analysis of the deposited data

Results flagged for a closer look

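In 4 of the 36 groups tested, 1 library of a gene lay far from the other 3 (Dixon's test at the 95% level, which chance meets in about 1 group in 20). C1qa in microglia at E10.5 had a lowest library of 156 CPM, below 244 to 250.1 CPM in the others. C2 in BAM at E10.5 had a highest library of 2.73 CPM against 0.599 to 0.917 CPM. C3 in BAM at E10.5 had 1 library at 2.80 CPM (72 counts) and 3 at 0. C4b in microglia at E10.5 had 1 library at 1.46 CPM and 3 at or below 0.0724 CPM.

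The change with stage differed between the populations for C2 and Cfp by a test of the difference itself. From E10.5 to E18.5 the change was greater in BAM by 2.52 on the log2 scale for C2 (edgeR adjusted p = 0.00104) and by 2.81 for Cfp (edgeR adjusted p = 4.74e-06). From E12.5 to E18.5 it was greater in BAM by 1.57 for Cfp (edgeR adjusted p = 0.0380), a call that several settings ended. With the compared groups alone this Cfp difference was 1.55 (edgeR adjusted p = 0.0676). With the R10 libraries at E18.5 left out it was 1.62 (edgeR adjusted p = 0.0802). Without microglia E12.5 replicate 3, the library with raised Cfp and BAM markers, it was 0.94 (edgeR adjusted p = 0.347). Other fits without a single library also ended the call.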

How the results depend on the processing

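Of the 56 calls, 38 passed in every setting that refitted the data and no call reversed. The 2-fold threshold was applied only to the counts of genes called, not to these calls. Counts of the 9 genes called that moved by over 1.5 times were as follows. At E11.5 the count went from 2 to 4 with the block of adjacent library numbers, halved counts, DESeq2 or no filter; at E16.5 and E18.5 it went from 3 to 5 with the compared groups alone. For BAM at E11.5 over E10.5 it went from 1 to 0 with those groups alone. With the R8 libraries at E18.5 left out, the counts from E10.5 to E18.5 were 5 of 9 in microglia, 4 of 9 in BAM and 1 for the difference. For the difference from E12.5 to E18.5 the count was 3 in DESeq2, 2 with no filter and 0 without the R10 libraries; for microglia over that span it was 1 without R10 or at 2-fold, and for microglia at E11.5 over E10.5 it was 3 at 2-fold. Leaving out 1 library gave 1 to 2 at E10.5, 1 to 2 for BAM at E11.5 over E10.5, 2 to 4 for BAM and 1 to 2 for microglia from E12.5 to E18.5, and 2 to 4 and 0 to 1 for the differences from E10.5 and E12.5. The log2 change of C1qc to C1qb in microglia from E10.5 to E18.5 was 0.39, and -0.0842 without the R8 libraries; this setting and its R10 counterpart were chosen for the ratios after seeing the data. Smaller moves were 5 to 6 at E12.5 with the block and 7 with the groups alone, 3 to 4 at E14.5 with the groups alone, and 3 to 4 at E16.5 and E18.5 with the block. The block paired 19 neighbouring library numbers of a stage, which the labels do not say share an embryo or day. No paired analysis was possible on replicate numbers because the labels give none.

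Over all genes, calls at E10.5 were 989, 1611 in DESeq2 and 527 with the groups alone. At E11.5 they were 1470 and 929 alone, and for E11.5 over E10.5 1822 and 1025 alone in microglia and 975, 1731 in DESeq2 and 358 alone in BAM. Without the R8 libraries they were 997 of 3409 at E18.5, 3620 of 7787 in microglia, 4129 of 8295 in BAM and 420 of 1463 for the difference from E10.5. The difference from E12.5 had 483, and 791 in DESeq2. Leaving out 1 library took E14.5 from 1585 to 826 (microglia replicate 1), and E12.5 to E18.5 from 1488 to 702 in microglia (E12.5 replicate 3) and from 2329 to 1527 in BAM (E12.5 replicate 3). It also took BAM at E11.5 over E10.5 to 648 and 629 (E11.5 replicates 1 and 2) and the difference from E12.5 to 318 and 312 (BAM E12.5 replicate 2, microglia E12.5 replicate 3). C3 and C4b rested on few counts in some libraries, with ranges of 0 to 424 and 0 to 156 before E14.5. From E14.5 on, the lowest library had 18 counts of C3, in BAM at E14.5, and 22 of C4b, in microglia at E16.5. The cause of these moves was not tested.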
